A study of Mus musculus with 10 samples.

Results

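The 1450 accessible sites described here lie at CpG-poor promoters of protein-coding genes in mouse embryo fibroblasts. They were selected on sequence and overlap, without any measure of signal. A promoter was the 1001 bp window reaching 500 bp to either side of the 5′ end of a GENCODE gene record on chromosomes 1 to 19 of mm10, and it was CpG-poor when CpG dinucleotides were present at less than 0.35 times the number its C and G content predicts (observed to expected CpG). Of 20807 coding genes, 7470 were CpG-poor. A member is a site of the deposited list that overlaps such a window by at least 1 bp, and the 1450 members, 0.942% of the 153924 sites listed, belonged to 1419 genes. The other 6051 CpG-poor genes had no site within 500 bp and serve as the contrast. Since the presence of a site chose the members, that presence is a description, without a test.

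Most promoters of housekeeping and developmental genes in mammals lie in CpG islands, which tend to be unmethylated and open in nearly all cell types. CpG-poor promoters are usually methylated where the gene is silent. They more often belong to genes of differentiated cells and to inducible genes, may carry a TATA box that positions the transcription machinery, and rely on sequence-specific factors such as AP-1, the dimers of FOS and JUN proteins that serum and stress induce. Fibroblasts are known for secreting collagens, proteoglycans and the proteases that remodel them.

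Accessibility was measured by ATAC-seq, in which the transposase Tn5 cuts open chromatin, in immortalized mouse embryo fibroblasts (iMEF). Their endogenous Ash2l alleles were inactivated by an inducible Cre, and they carry instead a lentiviral human ASH2L fused at its N terminus to FKBP12F36V. The cells came from 1 selected clone, so the list describes that line. All 10 libraries share this background, including the untreated cells that are labelled WT. The 5 groups with 2 replicates each were untreated cells and cells that received dTAG-13 for 30 min, 4 h, 8 h or 24 h. This compound recruits the fusion protein to a ubiquitin ligase and leads to its degradation. According to the paper's methods, the control cells, called untreated here, received ethanol. The list pools all libraries and gives only the position of each site. It carries no read count, no score and no value per library or condition, so that depth is unknown, untreated and treated cells were not compared here, and no replicate error belongs to any value. A site that was open in a few cells cannot be told apart from one that was open in all. The intervals given below cover the sampling of promoters only, and promoters are not independent replicates, because neighbouring genes and gene families share sequence and surroundings.

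Of the 1419 genes with a site, 1041 held neither a TATA box nor an AP-1 motif by the definitions used below. In the matrix, matrix protease and contractile lists, 16 of 66 CpG-poor genes held AP-1 (24.2%) and 8 held a TATA box (12.1%). For 334 CpG-poor genes that mark other cell types, these shares were 17.1% and 10.8%. Among all CpG-poor genes, AP-1 was present in 23.7% with and 15.9% without a site, and a TATA box in 4.4% and 5.3%. The promoters printed next were chosen for holding such a motif and need not resemble the others. They are the first 8 of 16 promoters, in the order of the matrix, matrix protease, cytokine and contractile lists, whose 5′ end was covered by a site and which held a TATA box or an AP-1 motif that began upstream of it. Each run comprises 250 bases before the 5′ end and the first 20 bases of the gene, read 5′ to 3′ on the gene's strand from the mm10 genome. Capitals mark TATAAA starting 40 to 20 bases before the 5′ end and the AP-1 motif TGAGTCA or TGACTCA. Postn codes for periostin, Ecm1 for extracellular matrix protein 1, and Pcolce for an enhancer of procollagen processing. The 5 Mmp genes code for matrix metalloproteinases. The stretches are at chr3:54360859-54361128 (plus strand) for Postn, chr3:95739550-95739819 (minus strand) for Ecm1, chr5:137613765-137614034 (minus strand) for Pcolce, chr9:7388028-7388297 (minus strand) for Mmp1b, chr9:7445572-7445841 (plus strand) for Mmp3, chr9:7502102-7502371 (plus strand) for Mmp10, chr9:7272264-7272533 (plus strand) for Mmp13 and chr10:128790660-128790929 (plus strand) for Mmp19.
Postn: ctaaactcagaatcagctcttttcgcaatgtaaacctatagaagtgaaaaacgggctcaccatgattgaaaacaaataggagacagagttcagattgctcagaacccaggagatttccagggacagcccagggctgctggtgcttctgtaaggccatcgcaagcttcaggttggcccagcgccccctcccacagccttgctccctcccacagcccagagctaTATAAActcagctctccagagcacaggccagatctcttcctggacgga
Ecm1: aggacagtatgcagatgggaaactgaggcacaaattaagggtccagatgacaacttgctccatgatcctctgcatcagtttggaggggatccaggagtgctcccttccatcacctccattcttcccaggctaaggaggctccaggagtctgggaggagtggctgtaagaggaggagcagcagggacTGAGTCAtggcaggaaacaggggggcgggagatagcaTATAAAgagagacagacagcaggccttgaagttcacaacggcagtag
Pcolce: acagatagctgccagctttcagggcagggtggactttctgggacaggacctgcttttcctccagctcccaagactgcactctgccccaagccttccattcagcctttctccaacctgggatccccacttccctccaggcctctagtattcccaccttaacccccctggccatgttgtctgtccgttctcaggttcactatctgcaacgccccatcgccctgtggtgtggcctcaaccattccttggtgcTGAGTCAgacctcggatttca
Mmp1b: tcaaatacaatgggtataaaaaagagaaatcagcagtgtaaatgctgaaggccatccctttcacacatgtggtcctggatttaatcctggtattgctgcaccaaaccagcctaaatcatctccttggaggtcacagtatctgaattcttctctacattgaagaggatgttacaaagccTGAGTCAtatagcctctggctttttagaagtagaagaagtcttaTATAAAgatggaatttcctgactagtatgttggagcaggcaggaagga
Mmp3: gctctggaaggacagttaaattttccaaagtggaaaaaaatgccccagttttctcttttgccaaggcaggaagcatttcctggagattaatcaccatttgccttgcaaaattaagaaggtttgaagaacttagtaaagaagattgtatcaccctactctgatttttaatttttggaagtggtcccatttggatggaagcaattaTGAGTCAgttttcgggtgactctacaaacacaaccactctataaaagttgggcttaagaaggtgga
Mmp10: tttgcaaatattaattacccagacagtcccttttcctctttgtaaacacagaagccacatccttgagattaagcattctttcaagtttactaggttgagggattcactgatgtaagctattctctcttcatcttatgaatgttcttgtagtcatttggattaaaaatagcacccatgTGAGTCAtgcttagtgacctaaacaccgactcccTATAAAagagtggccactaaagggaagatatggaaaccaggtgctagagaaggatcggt
Mmp13: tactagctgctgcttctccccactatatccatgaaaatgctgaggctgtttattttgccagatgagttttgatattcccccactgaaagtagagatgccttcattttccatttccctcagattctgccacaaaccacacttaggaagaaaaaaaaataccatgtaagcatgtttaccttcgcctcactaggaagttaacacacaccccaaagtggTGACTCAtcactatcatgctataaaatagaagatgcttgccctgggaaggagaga
Mmp19: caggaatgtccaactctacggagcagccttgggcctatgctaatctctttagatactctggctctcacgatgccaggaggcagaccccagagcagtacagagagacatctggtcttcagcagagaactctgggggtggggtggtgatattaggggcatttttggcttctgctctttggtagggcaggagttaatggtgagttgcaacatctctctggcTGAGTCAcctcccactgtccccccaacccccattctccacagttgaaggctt

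In these runs a position is counted from 0 at the 5′ end, so that negative positions lie upstream. The TATA box of Postn began at -28 and that of Ecm1 at -27. In Ecm1 an AP-1 motif began upstream of it at -64, and Mmp1b and Mmp10 showed the same order, with AP-1 at -72 and -73 and TATA boxes at -28 and -39, respectively. Mmp3, Mmp13 and Mmp19 carried AP-1 at -46, -35 and -32. In Mmp3 and Mmp13 a TATAAA was also present, in lower case, at -7 and -16. There it lay closer to the annotated 5′ end than the interval that was searched. Mmp1b held a further one, also in lower case, at -236, upstream of that interval. The AP-1 motif of Pcolce spanned the 5′ end itself, from -1 to 5.

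The share of promoters with a site rose with CpG content from one class to the next. Of all 20807 coding genes, 64.8% had a site. The share was 19.0% of the 7470 CpG-poor genes (95% Wilson interval 18.1 to 19.9%), 74.3% of the 3518 genes with an observed to expected CpG of 0.35 to 0.60 and 96.2% of the 9819 genes above (CpG-rich). Within the CpG-poor genes it increased in each step of 0.05, from 4.99% below 0.05 (25 of 501 genes) to 42.0% between 0.30 and 0.35 (308 of 734 genes). Of the 86 windows without a single CpG, 3 had a site, namely those of 4931408C20Rik, Serpina3i and Vmn2r83. The share continued to rise across the limit of 0.35, and 51.7% of the 663 genes in the next class (47.9 to 55.5%) had a site. Directly below 0.35, Ankrd23 had a site while Cyb5r2 and Myt1l had none, and directly above it Slc2a10, Gpr151 and Syn3 each had one.

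**Figure D1:**
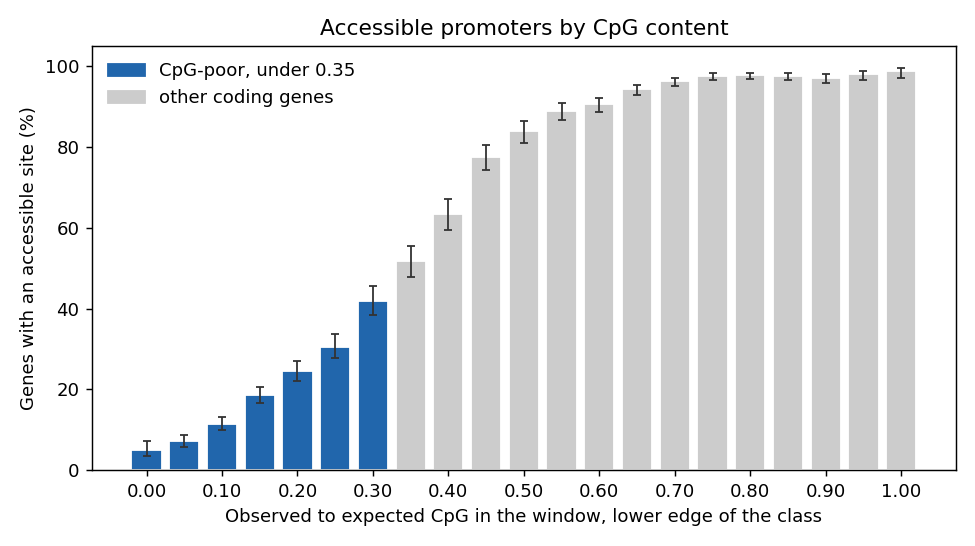
Share of coding genes with an accessible site within 500 bp of the 5′ end, in percent, by observed to expected CpG of the window in steps of 0.05, with 95% Wilson intervals (the last bar holds all genes from 1.00). The blue bars, which are the CpG-poor genes, climb from 4.99% to 42.0%, and the grey bars go on to 98.8%.

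A window of 1001 bp may meet a site anywhere in the genome. Therefore, windows of the same size were placed beside the same genes, a comparison added after the first values had been seen. At 5, 10 and 20 kb on either side, 10.4 to 11.1% of the 7470 CpG-poor genes had a site in the displaced window, compared to 19.0% at the 5′ end. The displaced windows of CpG-rich genes gave 9.87 to 16.5%, compared to 96.2% at their 5′ ends. At 2 kb, 10.9% of the CpG-poor genes had a site upstream and 13.8% downstream. The lists of extracellular matrix, matrix protease and contractile genes, which had the highest shares, were pooled after their values had been seen. Left out were cytokines (41.0% with a site), mesenchymal surface proteins (53.85%) and S100 proteins, annexins and galectins (35.3%), so the pool's high share in part reflects this choice. Of its 66 CpG-poor genes, 80.3% had a site at the 5′ end (53 of 66, 69.2 to 88.1%), while the displaced windows at 5 to 20 kb gave 15.2 to 28.8%. Their windows at 2 kb gave 21.2% upstream and 40.9% (27 of 66, 29.9 to 53.0%) downstream, the latter above the range of the more distant windows. The downstream windows include wide sites already counted at the 5′ end, such as those of Col1a2 (to position 3108) and Adamts5 (to position 3583). How many did so was not counted. For 334 CpG-poor genes that mark other cell types, 15.6% had a site at the 5′ end (52 of 334, 12.1 to 19.9%), and the windows displaced by 2 to 20 kb gave 11.7 to 17.1%, a range that includes the value at the promoter.

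**Figure D2:**
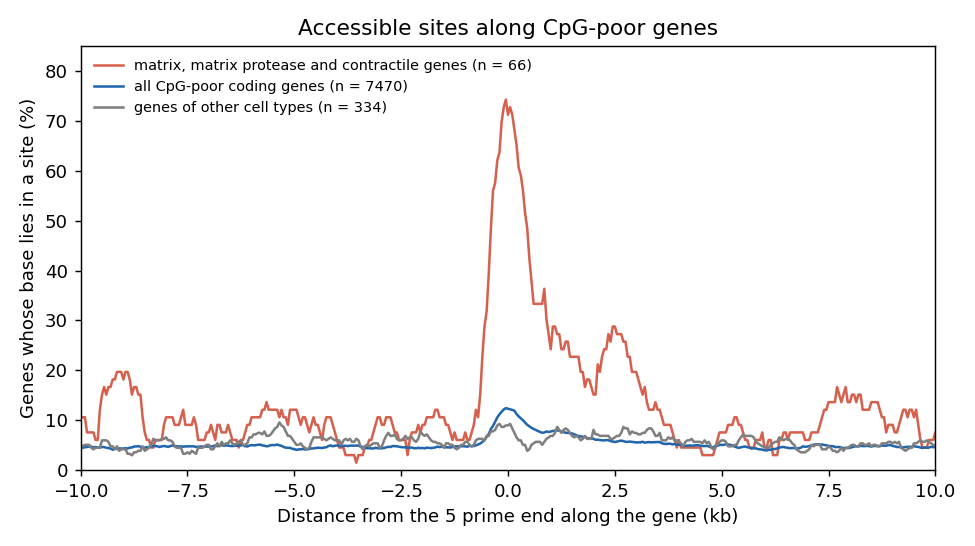
Percentage of genes whose base at the given distance (kb, along the gene) from the 5′ end lies in an accessible site, in steps of 50 bp, for 66 matrix, matrix protease and contractile genes (red), all 7470 CpG-poor genes (blue) and 334 genes of other cell types (grey). The red line peaks at 74.2% just before the 5′ end and the blue line at 12.4%. The grey line reaches 9.58% at 5350 bp upstream and 9.28% near the 5′ end. The red genes come from the lists with the highest shares.

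Base by base, the 3 groups of genes could be followed along 10 kb to either side. In the matrix, protease and contractile genes the share peaked at 74.2% at 50 bp before the 5′ end, and its median between 5 and 10 kb was 9.09%. All CpG-poor genes together peaked at the same position with 12.4%, against 4.74% between 5 and 10 kb. The genes of other cell types lay at 5.09% between 5 and 10 kb. Their highest value, 9.58%, was 5350 bp upstream, only slightly above the 9.28% at positions -200 and 50 of the promoter.

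Most CpG-poor genes of the extracellular matrix were accessible. Of 31 CpG-poor matrix genes, 26 had a site (83.9%, 67.4 to 92.9%), and in 22 it covered the 5′ end, against 19.0% and 12.3% of all CpG-poor genes. Among the fibrillar and microfibrillar collagens, the site of Col1a1 (chr11:94935918-94936576) spanned 659 bp, that of Col3a1 2113 bp and that of Col6a1 1501 bp, each across the 5′ end. The site of Col1a2 was 2696 bp wide but began 413 bp inside the gene. The small leucine-rich proteoglycans Dcn, Fmod, Ogn, Omd, Prelp and Aspn, which bind collagen fibrils, had sites of 541 to 1678 bp over the 5′ end. Postn (647 bp), Spp1 (osteopontin, 754 bp), Mgp (matrix Gla protein, 1068 bp) and the elastic fibre glycoproteins Emilin1 (1499 bp) and Emilin2 (2077 bp) were covered as well. The genes without a site within 500 bp were Fbn1, Lum, Tnn, Sparc and Lama2, of which 3 had one at another annotated start.

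The list of matrix proteases and their inhibitors held 25 CpG-poor genes, of which 17 had a site (68.0%, 48.4 to 82.8%). Adamts5, an aggrecan-cleaving protease, had the widest site of all members with 3668 bp, reaching from position -84 to position 3583. Adam12 (1349 bp), Adamts4 (993 bp), Adamts12 (1916 bp), the cathepsin gene Ctsk (1196 bp) and the plasminogen activator gene Plat (1103 bp) were covered at the 5′ end. Ctss, Serpine2, Serpinb2 and Serping1 had no site within 500 bp, though Serpine2 had one at another annotated start. Both lists together reached 43 of 56 genes or 76.8%.

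Contractile and smooth muscle genes were few among the CpG-poor genes, and each of the 10 had a site over its 5′ end (100%, 72.2 to 100%). They included Acta2, the smooth muscle actin of activated fibroblasts (2180 bp), Actg2 (749 bp), the calponin gene Cnn1 (1634 bp), the smooth muscle myosin gene Myh11 (547 bp), Cald1 (1283 bp), Lmod1 (1383 bp) and Ankrd1 (1064 bp). In contrast, 10 of 41 striated muscle genes had a site (24.4%, 13.8 to 39.3%). The myosin genes Myh1, Myh3, Myh4, Myh6, Myh7 and Myh8 had none within 500 bp, although Myh7 had one at another annotated start, and the sites of Tnnt3, Casq1 and Nppa did not cover the 5′ end.

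Of 39 CpG-poor genes for cytokines, chemokines and acute phase proteins, 16 had a site (41.0%, 27.1 to 56.6%). Sites covered the 5′ ends of Il6 (1143 bp), Ccl2 (1300 bp), Ccl7 (567 bp), Il33 (506 bp), Hgf (1018 bp) and the complement gene C3 (650 bp). Tnf had a narrow site of 302 bp, and that of Csf2 (192 bp) began 350 bp downstream. Il11, Il1a, Il1b, Lif, Csf3 and Igf1 had no site within 500 bp, but Il11, Lif and Igf1 had one at another annotated start. Of 13 genes for surface proteins of mesenchymal cells, 7 had a site (53.85%, 29.1 to 76.8%). Among them were Cd44 (1312 bp), Vcam1 (1371 bp, beginning 43 bp downstream) and Il1r1 (1316 bp). Of 17 genes for S100 proteins, annexins and galectins, 6 had one (35.3%, 17.3 to 58.7%). This interval holds the 19.0% of all CpG-poor genes. The sites of S100a4 (1576 bp), Anxa1 (1634 bp) and Lgals1 (1390 bp) were wide, those of S100a7a (377 bp) and S100a8 (326 bp) narrow.

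The lists of other cell types stayed between 10.6 and 24.4%. Of 55 hepatocyte genes, 7 had a site, and the albumin gene Alb, the fibrinogen genes Fga, Fgb and Fgg and Apoa1 had none, whereas the acute phase genes Orm1 and Orm2 had sites of 1243 and 1037 bp. Red blood cell genes reached 3 of 21, lymphoid genes 6 of 45, myeloid genes 6 of 46, epidermal genes 8 of 40, genes of pancreas and gut 5 of 47, germ cell genes 5 of 27 and genes of milk proteins 2 of 13. The globin genes Hba-a1, Hba-a2, Hbb-bt and Hbb-bs, the T cell genes Cd3d, Cd3e and Cd3g and the macrophage genes Csf1r and Adgre1 were without a site within 500 bp, and of these Cd3d had one at another annotated start. Sites were nevertheless found at Il7r (1972 bp), Cd68 (1224 bp), Lyz2 (924 bp), Ivl (involucrin, 1197 bp) and Sprr1a (870 bp). Together 52 of 334 such genes had a site, and in 30 it covered the 5′ end (median width 784.5 bp over 54 sites), compared to 47 of 66 genes in the lists of matrix, protease and contractile genes.

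**Figure D3:**
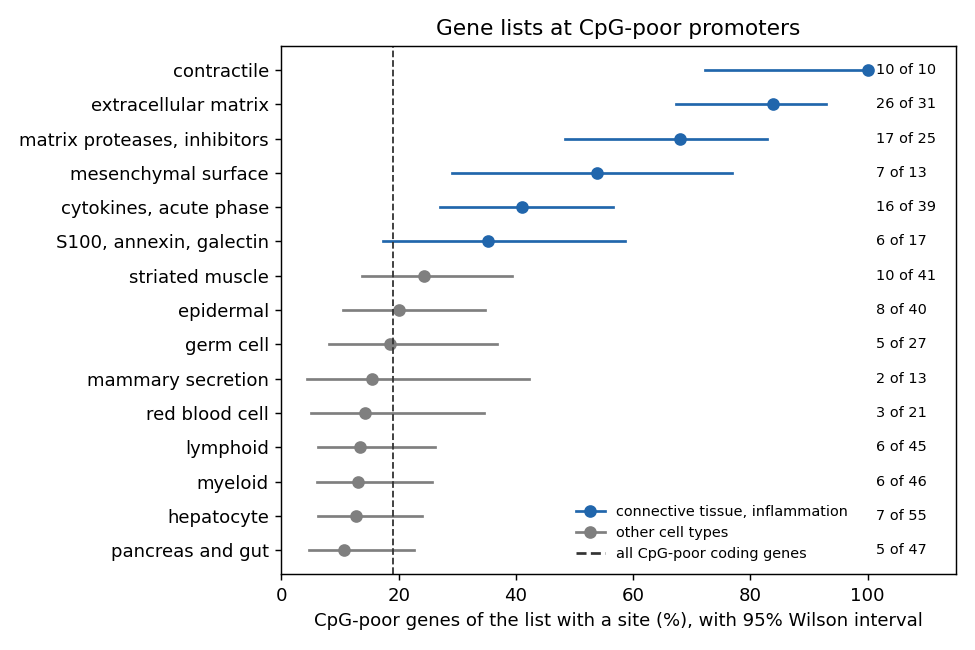
Percentage of the CpG-poor genes of each list with a site within 500 bp of the 5′ end (points) with 95% Wilson intervals (lines), and the counts at the right. The dashed line marks the 19.0% of all CpG-poor genes, blue marks connective tissue and inflammation, grey marks other cell types. Contractile, matrix and matrix protease genes lie far to the right with 100%, 83.9% and 68.0%, and the grey lists end at 24.4%.

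Accessible and inaccessible CpG-poor promoters could be immediate neighbours. In the matrix metalloproteinase cluster of chromosome 9, chosen after its values had been seen, 9 coding genes start within 419.6 kb, and all are CpG-poor. Mmp13 (site of 744 bp), Mmp1b (1006 bp), Mmp3 (1085 bp), Mmp10 (1052 bp) and Mmp27 (1231 bp) were covered at the 5′ end. Mmp12, Mmp8, Mmp20 and Mmp7 had no site within 500 bp, and their nearest sites were 940, 3591, 2415 and 1785 bp away. Of the 5 genes with a site, 4 held 1 AP-1 motif in the window and Mmp27 held none, while of the 4 without a site only Mmp7 held one. Mmp1a, a close relative of Mmp1b in the same cluster, is recorded in this annotation as a polymorphic pseudogene and was not counted, and reads that fit both copies may have been assigned to either.

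**Figure D4:**
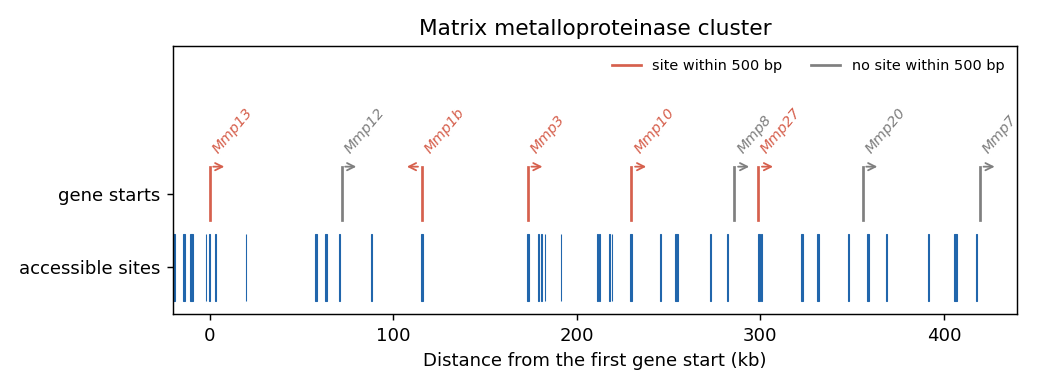
Starts of the 9 protein-coding matrix metalloproteinase genes (arrows show the direction of transcription) and accessible sites (blue, drawn to scale) by distance in kb from the start of Mmp13. Red starts have a site within 500 bp and grey starts have none.

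Other clusters that were chosen in the same way differed in pattern. Ecm2, Aspn, Omd and Ogn are consecutive proteoglycan and matrix genes on chromosome 13 within 103 kb. All of them had a site, which began 4 bp downstream in Ecm2 and covered the 5′ end in the others. Among 6 chemokine genes on chromosome 11, Ccl2 and Ccl7 were covered by sites, Ccl12 had a site of 233 bp that ended 48 bp away, and Ccl11, Ccl8 and Ccl1 lay 8681, 13388 and 49801 bp from the nearest site. Among the keratin genes of chromosome 11, Krt15 and Krt16 were covered, and the site of Krt13 began 481 bp downstream. Krt19 missed the window with a distance of 514 bp, and Krt14 and Krt17 lay 3632 and 7734 bp from a site. AP-1 did not go with the sites in these clusters as it did in the Mmp cluster. Ecm2, Aspn, Omd, Ogn and all 6 chemokine genes held 0 AP-1 motifs in the window, with or without a site. Of the keratin genes named here, only Krt16 held any, namely 2.

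The sites at CpG-poor promoters were narrower than those at CpG-rich promoters. Their median width was 832 bp (95% interval 793 to 867 bp, quartiles 483 and 1229 bp), compared to 1489 bp at 8555 sites of CpG-rich promoters and 619 bp over the entire list. Sites of 1 kb or more made up 38.3% of the members and 89.7% of the sites at CpG-rich promoters. The 5 widest members belonged to Adamts5 (3668 bp), Csrnp1 (3256 bp), Emp1 (2790 bp), Ssc5d (2785 bp) and Csdc2 (2776 bp). That of Csrnp1 began 342 bp inside the gene, whereas Ssc5d was covered from position -2099 to position 685.

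Members were also placed less regularly around the 5′ end. They covered a 5′ end in 908 of 1450 cases (62.6%, 60.1 to 65.1%), compared to 96.0% of the sites at CpG-rich promoters, a difference of -33.4 percentage points (95% Newcombe interval -35.9 to -30.9). Of the remaining 542 sites, 233 lay entirely upstream and 309 entirely downstream. Width moved with this difference. Among sites of 1000 to 2000 bp, 72.7% of members and 98.5% of the others covered a 5′ end, and among sites of 500 to 1000 bp it was 67.7% and 82.1%. In narrower sites, which were few at CpG-rich promoters, the order was turned. The shares were 47.3% (98 of 207) and 41.8% (41 of 98) at 300 to 500 bp. Below 300 bp they were 35.0% (62 of 177) and 19.7% (14 of 71). No interval was computed for the width classes. The middle of the member lay upstream in 45.0%, compared to 24.1% at CpG-rich promoters. Coverage over the genes with a site was highest at position -58 with 65.9%, while in CpG-rich genes it was highest at 140 with 98.3%. A single site was found at 1360 genes and 2 sites at 59 genes, of which Vmn2r83, Esp8, Col20a1, Gm4869 and Krtap5-4 had the lowest observed to expected CpG. Members were shared by CpG-poor neighbours in 28 cases, and 16 members also reached the window of a CpG-rich gene. The last sites to reach a window came within 495 bp (Gas2l2), 497 bp (Ubd) and 498 bp (Gm17402), and the first to miss one were 504 bp (Ckmt1 and Sh3gl3) and 505 bp (Erich6b) away.

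CpG-poor genes with and without a site differed in their surroundings. The median number of other sites whose middle lay 1 to 50 kb away was 10 (9 to 10) for genes with a site and 4 (4 to 5) for genes without. None was found around 1.41% of the former and 25.7% of the latter. The medians lay closer together without large symbol families and unnamed gene models, at 10 with and 8 without a site. For 5′ ends of the best support level they were 9 and 7. The share with a site rose from 1.27% of the 1573 genes with 0 sites around to 10.7%, 25.3%, 30.8% and 36.1% for genes with 1 to 4, 5 to 9, 10 to 14 and 15 or more sites around. Matrix, protease and contractile genes, from the lists with the highest shares, exceeded this in the classes that held over 3 of them. A site was present in 16 of 24 genes at 5 to 9 sites around, 11 of 13 at 10 to 14 and 24 of 26 at 15 or more. The genes of other cell types, with a median of 8 sites around, had a site in 17 of 134, 20 of 99 and 8 of 30 cases in the same classes.

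The windows themselves differed as well. Median GC content was 0.498 with and 0.447 without a site, and median observed to expected CpG 0.228 and 0.152. A stretch of 200 bp that was rich in CpG lay in 13.9% of windows with and 4.89% of windows without a site, a difference of 8.99 percentage points (7.196 to 10.96). The 5′ end of another gene within 1 kb was found for 9.37% and 5.12%. Neither feature was present in 1122 of the 1419 genes with a site (79.1%) and in 5465 of the 6051 genes without (90.3%). Masked repeats took a median fraction of 0.119 and 0.146 of the window. The 5′ end belonged to a transcript of the best support level in 59.8% of genes with and 43.9% of genes without a site, and 884 of the 6051 genes without one had a site at another of their annotated starts. The gene span had a median of 15414 bp with and 8492 bp without a site. How much of the difference in accessibility goes with base composition, annotation or surroundings was not tested.

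To describe which sequences accompany accessibility, 22 motifs were searched on both strands of the window. The exceptions were TATAAA, which was searched on the gene's strand with a start between -40 and -20, and CCAAT between -120 and -40. The AP-1 motif was present in 23.7% of promoters with and 15.9% of promoters without a site, a difference of 7.78 percentage points (95% Newcombe interval 5.44 to 10.2). CpG-rich promoters held it in 8.05% and all coding promoters in 12.1%. Within windows of 0.40 to 0.50 GC the difference was 10.3 points (6.68 to 14.1), and among genes with neither a near neighbour nor a CpG-rich stretch it was 8.46 points (5.84 to 11.2). The share with a site increased from 17.5% without an AP-1 match to 24.7% with 1 and 36.6% with at least 2 (49 of 134 genes). Of 389 matches in the windows of genes with a site, 75.6% (71.1 to 79.6%) lay inside sites, which took up 55.1% of the bases of these windows. Other motifs also lay inside sites more often than this share of bases, including some that were not more frequent at genes with a site, such as TEAD with 66.7% of 267 matches (60.8 to 72.0%) and STAT with 61.1% (56.8 to 65.3%), whereas GATA gave 47.8% of 186 (40.8 to 55.0%). A match of the MAF and NRF2 motif overlapped 45 of the 389.

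For the TATA box, whether the groups differed depended on the definition used. It was found in 4.44% of promoters with (63 genes) and 5.31% without a site, a difference of -0.865 points with an interval of -1.99 to 0.450, and in 0.774% of CpG-rich promoters. With TATAAA or TATATA allowed to start between -60 and -10, the difference was -3.22 points (-4.71 to -1.55). For 5′ ends of the best support level it was -2.03 points (-3.71 to -0.0955). The interval also lay below 0 at a limit of 0.40 for observed to expected CpG and with windows of 1000 bp, and it held 0 under the other 7 alternatives. The most frequent start among 5 bp classes was -30 to -26 in genes with and without a site. Promoters with both a TATA box and AP-1 had a site in 21 of 64 cases (32.8%, 22.6 to 45.0%), those with a TATA box alone in 42 of 320 (13.1%, 9.86 to 17.3%), those with AP-1 alone in 25.5% and those with neither in 17.8%.

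Of the 22 motifs, 8 were more frequent at genes with a site by an interval above 0, 4 were less frequent, and for 10 the interval held 0. These intervals are not adjusted for the number of motifs. Only the AP-1 and TATA box differences were also computed without large symbol families and unnamed gene models. For the other motifs, the part played by gene families was not tested. Beside AP-1, the more frequent ones were the E-box CAGCTG (54.0% and 41.6%; 41.8% of all coding promoters), the SP motif GGGGCGG (16.7% and 6.10%; 44.6% of all), ETS CCGGAAG (7.12% and 3.88%; 19.5% of all), NF-kB GGNNTTTCC (20.3% and 16.1%; 16.7% of all), MAF and NRF2 TGACNNNGC (33.6% and 28.8%; 33.7% of all) and the SMAD palindrome GTCTAGAC (1.62% and 0.711%; 0.836% of all). The full NFI motif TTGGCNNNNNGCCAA was found at 4 genes in either group and in 0.0721% of all coding promoters. Less frequent were CCAAT (14.9% and 17.1%; 18.6% of all), C/EBP TTGCNNAA (34.0% and 38.5%; 29.6% of all), HNF4 CAAAGTCCA (1.97% and 3.02%; 1.65% of all) and STAT TTCNNNGAA (28.9% and 32.5%; 24.2% of all). Within 0.40 to 0.50 GC, 6 motifs were more and 1 was less frequent, and they were partly other motifs. AP-1, the E-box, SP and ETS remained more frequent and HNF4 less frequent. The E-box difference went from 12.4 to 7.08 points (2.78 to 11.3), that of SP from 10.6 to 2.76 points (0.812 to 5.13) and that of ETS from 3.23 to 2.82 points (1.00 to 5.08). The intervals of NF-kB, MAF and NRF2, SMAD, NFI, CCAAT, C/EBP and STAT then held 0, with NF-kB at 2.19 points (-1.08 to 5.76) and MAF and NRF2 at -1.54 points. RUNX (25.5% and 21.8%, 3.70 points, 0.116 to 7.53) and IRF (18.0% and 13.8%, 4.24 points, 1.15 to 7.64) became more frequent by their intervals.

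For the motifs whose interval held 0 over all CpG-poor genes, beside TATAAA, the shares with and without a site were 1.34% and 0.926% for CRE TGACGTCA (3.33% of all coding promoters), 16.5% and 18.2% for TEAD CATTCCA (12.3% of all) and 4.93% and 5.54% for the CArG box of SRF (4.22% of all). They were 21.3% and 19.8% for RUNX TGTGGTT (14.6% of all) and 11.7% and 13.3% for FOX TGTTTAC (9.41% of all). For GATA the letters AGATAAG were found in 11.91% and 13.02% (8.42% of all). PU.1 GAGGAAGT was present in 8.46% and 9.02% (6.88% of all), OCT ATGCAAAT in 5.00% and 5.65% (4.03% of all) and IRF GAAANNGAAA in 14.2% and 14.1% (10.9% of all). All coding promoters held TATAAA in 2.48%. A match names letters only and does not show that a factor was bound.

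**Figure D5:**
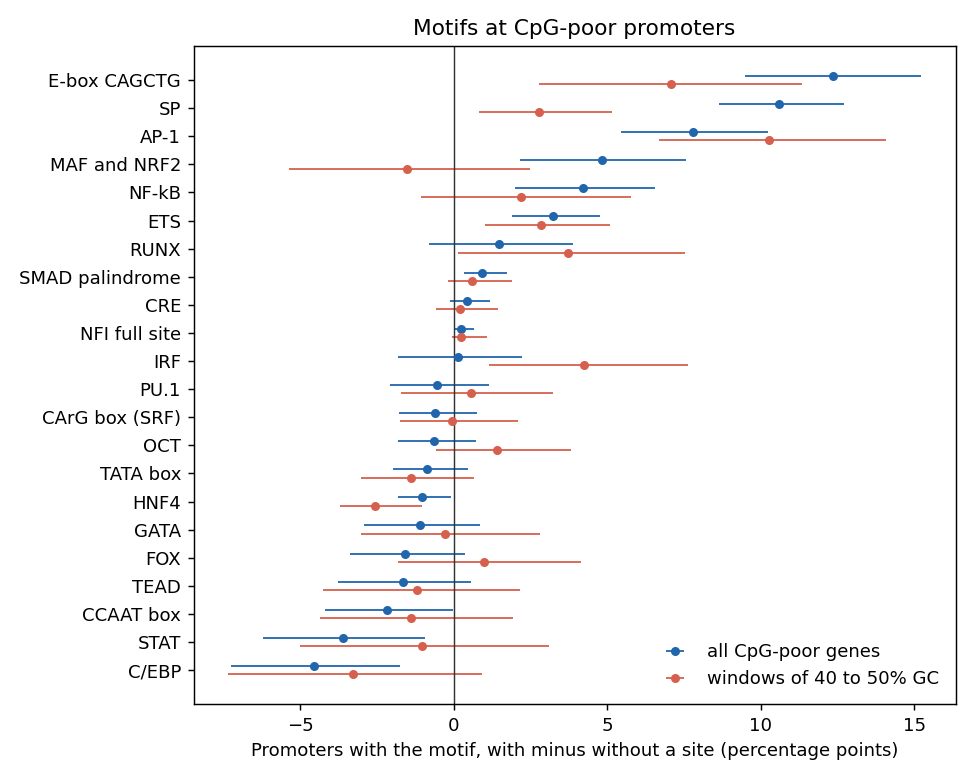
Difference in the percentage of promoters that hold each of the 22 motifs, CpG-poor genes with minus without a site (percentage points, points with 95% Newcombe intervals), for all CpG-poor genes (blue) and for windows of 40 to 50% GC (red). AP-1 stays to the right of 0 in both (7.78 and 10.3), while MAF and NRF2 moves across 0 (4.83 and -1.54).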

How the data were processed

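ATAC-seq was performed by the authors on 10 libraries in 5 groups. According to the study's methods and the submitters' processing notes, reads were aligned to mm10 with BWA, replicates were merged, peaks were called with MACS2 and accessibility was tested with DESeq2. SAMtools served to filter and sort the alignments and deepTools to draw signal profiles and heatmaps. Thresholds stated for the differential test were not used here, and the threshold for calling peaks and the versions of these tools are not given in the sources used here. The values used here are the start and end positions in base pairs of the list of all sites deposited by the authors, which has 3 columns (chromosome, start, end) and holds no count or signal per library. Merging replicates and pooling samples can widen sites and add weak ones, and the peak threshold sets their width and number. Reads of near-identical gene copies may not have been placed, which could lower the number of sites in large gene families.

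The starts in the list were taken as 0-based and the ends as not included, since the smallest step between sites was 1 bp and 0 sites passed a chromosome end, and printed positions are 1-based. Gene records came from GENCODE vM21 and sequence from the RefSeq copy of GRCm38. The RefSeq promoter table had the same start for 351 of 1419 genes, and 351 of these sequences were identical to those used. Shares carry 95% Wilson intervals, differences of shares 95% Newcombe intervals and medians 95% intervals from order statistics. No p-values were computed, because the members were chosen from the same list. The members, 15 gene lists, 34 symbol families and 22 motifs were chosen with earlier results of these data known. Genes were named by list order, by width, by number of sites and by closeness to the thresholds, with up to 6 genes per list with and 3 without a site as a guide; further listed genes, displaced windows, pooled lists and clusters were chosen after values were seen. The counting was tested on simulated data, and all of 370 planted sites and 223 planted motif matches were recovered. Python 3.11.15, NumPy 2.4.6, pandas 2.3.3 and Matplotlib 3.10.9 were used.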

Additional observations from a re-analysis of the deposited data

How the results depend on the processing

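The 7 results given next were recomputed under other definitions, while the other lists, families, clusters, displaced windows and chromosomes were not. The share of CpG-poor genes with a site (19.0%) was 16.5% and 21.7% with a limit of 0.30 and 0.40 for observed to expected CpG, 16.2% and 24.9% with windows of 250 and 1000 bp, 13.8% when the middle of the site had to lie in the window, 12.6% for sites of at least the median width, 24.2% for 5′ ends of the best support level, 17.0% for genes without a near neighbour or a CpG-rich stretch, and 27.7% without large symbol families and unnamed gene models. Among definitions added after seeing the data, it was 30.8% with any annotated start and 12.3% when the site had to cover the 5′ end. The share of members covering a 5′ end (62.6%) was 65.2% at the limit of 0.40, 74.8% and 44.9% for 250 and 1000 bp, 78.0% by the middle of the site, 71.3% for wide sites and 68.8% for well-supported 5′ ends. Its difference from CpG-rich promoters ranged from -46.7 points (1000 bp windows) to -20.3 points (middle of the site), but could not be compared among genes without a CpG-rich stretch, where hardly any CpG-rich gene is left. The median width (832 bp) was 791 and 881 bp at the limits of 0.30 and 0.40, 781.5 bp for 1000 bp windows, 698 bp by the middle and, by construction, 1086 bp for wide sites. The TATA box difference went below 0 by its interval at a limit of 0.40 (-1.54 points), for 1000 bp windows (-1.19) and for well-supported 5′ ends (-2.03). It also did so with TATAAA or TATATA starting between -60 and -10 (-3.22), and the cause was not tested. The AP-1 difference stayed above 0 under all 11 alternatives tried, at 4.94 to 10.4 points. The median number of sites around genes with a site (10) was 5 for wide sites, where fewer sites are counted, and 8 for windows of 0.40 to 0.50 GC. Around genes without a site (4) it was 2 and 5 there. It was 7 for well-supported 5′ ends and 8 without large symbol families and unnamed gene models. The share of matrix and protease genes with a site (76.8%) was 62.5% by the middle of the site and 60.9% for 0.40 to 0.50 GC (14 of 23 genes).

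No paired analysis was possible because libraries are not resolved in the deposited positions, and leaving out a replicate and the replicate block were not run for the same reason. The list does not show how strong a site was, in which libraries it was called or whether it changed with dTAG-13. The annotated 5′ end need not be the start that these cells use, and weaker sites than the authors' threshold are not listed. The lists and clusters were chosen with results known, so their counts are descriptions.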

Other observations

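Gene families differed widely among the CpG-poor promoters. Apart from 1130 CpG-poor genes with the symbol of an unnamed gene model (114 with a site, 10.1%), the olfactory receptor genes were the most numerous with 1119 CpG-poor genes, of which 29 had a site (2.59%), and 7 of 325 vomeronasal receptor genes had one (2.15%). Together with taste and trace amine receptors they formed 1494 genes with a median of 0 sites 1 to 50 kb away, and 2.61% had a site at the 5′ end, within the 1.61 to 2.81% found in windows displaced by 2 to 20 kb. Without these receptor families the share of CpG-poor genes with a site was 23.1% (1380 of 5976). The major urinary protein genes had a site in 0 of 22, the secretoglobin genes in 1 of 34 and the kallikrein genes in 1 of 25.

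Some other families had more than the 19.0% of all CpG-poor genes. A site was present at 13 of 30 genes for guanylate-binding and interferon-inducible proteins (43.3%, 27.4 to 60.8%), including Ifi204 (1218 bp), Ifi211 (1559 bp) and Ifi205 (1155 bp) of 1 cluster, Gbp2 (2131 bp), Gbp3 (1429 bp) and Ifi27 (1322 bp). The type I interferon genes themselves had a site in 2 of 15. Collagen genes had one in 13 of 16, although those of Col10a1, Col22a1 and Col17a1 were 265, 242 and 187 bp wide and did not cover the 5′ end. Zinc finger genes with a symbol beginning with Zfp had a site in 19 of 68 (27.9%, 18.7 to 39.6%), an interval that holds the 19.0%. At Zfp937, Zfp442 and Zfp947, 0 other sites had their middle 1 to 50 kb away.

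By chromosome, the share of CpG-poor genes with a site outside the receptor families ranged from 14.7% on chromosome 14 to 38.2% on chromosome 10, with 34.1% on chromosome 18 and 30.8% on chromosome 15.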
